A study of Mus musculus with 8 samples.

Results

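Messenger RNA of 9 genes of iron uptake, storage and control was followed in Ba/F3 cells carrying wild type FLT3 or FLT3/ITD, with and without the chemokine Cxcl12. The genes are Tfrc, Steap3, Slc11a2, Fth1, Ftl1, Slc40a1, Hmox1, Ireb2 and Aco1. They were taken by name, and all 16 probes that the array design gives these names were read, of 41174 probes of 21172 named genes. Of the 16, 11 probes of 7 genes could be measured.

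Ba/F3 is an interleukin-3-dependent mouse pro-B cell line, and FLT3/ITD is a form of the receptor tyrosine kinase FLT3 with an internal tandem duplication. All cells were grown in medium with 10% FBS and 0.1 ng/ml mouse IL3. They were then washed and held for 4 h in medium with 0.5% BSA, either alone or with 100 ng/ml mouse Cxcl12. The labels do not say whether IL3 was present in these 4 h. The 4 groups were wild type FLT3 (WT), FLT3/ITD (ITD), wild type with Cxcl12 and ITD with Cxcl12, each with 2 arrays. Both Cxcl12 states were run on both slides, called set 1 and set 2 here. The ITD form named N51 lay only in set 1 and the form named N78 only in set 2, so the ITD form and the slide cannot be told apart. Each group also held the same position on both slides, so position and group cannot be told apart. Whether the lines are clones is not given in the labels, nor whether the samples came from separate cultures, so p-values measure only the spread between these arrays.

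Iron bound to transferrin enters most cells through the transferrin receptor, is reduced by STEAP3 in the endosome and leaves it through the transporter DMT1 (Slc11a2). Part of the iron is built into haem, which haem oxygenase 1 (Hmox1) breaks down. Iron that is not used is stored in ferritin, a shell of heavy (Fth1) and light (Ftl1) chains, or exported by ferroportin (Slc40a1). The iron regulatory proteins IRP1 (Aco1) and IRP2 (Ireb2) bind stem-loops in some of these messengers when iron is scarce. This stabilises Tfrc RNA and blocks translation of ferritin RNA. An array reads RNA levels and does not see that translational step.

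The promoter windows of the genes at the centre of the results come first. RefSeq start sites (GRCm38.p6) were given for 6 of the 9 genes in 11 windows, and the 250 bases before the start were searched on both strands for 4 motifs. CCAAT, the box bound by NF-Y, was found in 4 of the 11 windows and in 33.8% of all 32851 mouse windows. CACGTG (E-box, 6.02% of all windows), TGACNNNGC (antioxidant response element core, 10.2%) and TTCNNNGAA (STAT site, 7.02%) were found in none of the 11. Steap3 alone had 4 of these windows. Slc11a2, Slc40a1 and Hmox1 had no window, so their promoters were not searched. Tfrc and Ftl1 are shown because both rose in ITD cells. Fth1 is shown because it is the other chain of ferritin and did not pass the test. Tfrc and Fth1 have 2 windows each, and the one with a CCAAT match is printed. The windows are chr16:32608646-32608895 (plus strand), chr7:45459887-45460136 (minus strand) and chr19:9982396-9982645 (plus strand), 5′ to 3′, with CCAAT or its complement ATTGG in capitals. A match is a description of the letters and not a site.
Tfrc: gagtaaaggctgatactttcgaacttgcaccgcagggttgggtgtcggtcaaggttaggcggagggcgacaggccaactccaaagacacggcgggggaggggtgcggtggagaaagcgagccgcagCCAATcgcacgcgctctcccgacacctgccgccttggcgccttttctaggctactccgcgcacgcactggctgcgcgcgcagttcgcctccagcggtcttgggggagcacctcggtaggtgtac
Ftl1: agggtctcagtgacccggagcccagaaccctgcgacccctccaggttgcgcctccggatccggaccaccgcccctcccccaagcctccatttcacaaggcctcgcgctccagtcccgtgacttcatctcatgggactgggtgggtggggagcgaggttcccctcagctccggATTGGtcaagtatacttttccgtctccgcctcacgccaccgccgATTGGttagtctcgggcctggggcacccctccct
Fth1: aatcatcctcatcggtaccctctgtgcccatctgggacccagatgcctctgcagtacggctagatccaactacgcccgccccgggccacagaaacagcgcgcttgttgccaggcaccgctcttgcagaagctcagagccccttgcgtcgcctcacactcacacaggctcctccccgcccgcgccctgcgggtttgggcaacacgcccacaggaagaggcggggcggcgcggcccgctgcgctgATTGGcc
The Ftl1 window held 2 matches and the Tfrc and Fth1 windows 1 each.

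Levels are given as log2 of the processed intensity minus the array's own 75th percentile, so 0 is a bright probe and 1 unit is a doubling. The 75th percentile was 937 to 1110 intensity units in set 1 and 367 to 600 in set 2, and 49.2 to 55% of probes were well above background. Levels of different probes are not compared with each other, since probes bind with different strength. Of the pro-B cell markers, Cd79a, Cd79b, Vpreb1, Ptprc and Il3ra were well above background on all 8 arrays, while Igll1, Ebf1, Pax5, Il7r and Rag1 were so on none, which is 5 and 5 of 11. Of the erythroid markers, Hba-a1, Klf1, Epor and Gata1 were above background on all arrays.

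Tfrc, the transferrin receptor, rose in FLT3/ITD cells. Its probe (mm9, chromosome 16, 32632255 to 32632314, plus strand) was printed 10 times on each array, with a coefficient of variation over the 10 spots of 2.34 to 6.09%. In set 1 its level was 2.60 in WT, 2.16 in WT with Cxcl12, 2.86 in ITD and 3.33 in ITD with Cxcl12. In set 2 the levels were 2.09, 2.62, 3.06 and 3.88 in the same order. All 4 ITD arrays lay above all 4 wild type arrays, a separation that 2.97% of measured probes showed in this direction. Averaged over both Cxcl12 states, the ITD minus wild type difference was 0.92 log2 (SE 0.19, 95% interval 0.48 to 1.36, 1.89-fold, limma adjusted p = 0.032). It was 0.72 in set 1 and 1.11 in set 2. The adjusted p rose above 0.05 when 6 of the 8 arrays were left out in turn (WT in set 2, ITD in either set, WT with Cxcl12 in either set, ITD with Cxcl12 in set 2), with differences of 0.69 to 1.01 and limma adjusted p of 0.0593 to 0.152. In bulk RNA a change in the cells present and a change in RNA per cell cannot be told apart.

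The group order for Tfrc was ITD with Cxcl12 (3.61 ± 0.39 log2, SD, n = 2), ITD (2.96 ± 0.14), WT with Cxcl12 (2.39 ± 0.33) and WT (2.34 ± 0.36). Within ITD cells, the level with Cxcl12 was 0.65 log2 higher (SE 0.28, limma adjusted p = 0.474), and within wild type cells 0.05 higher (SE 0.28, adjusted p = 0.992), so neither difference passed. The middle neighbours, WT with Cxcl12 (2.16 and 2.62) and ITD (2.86 and 3.06), did not overlap. They were 2 arrays each in an order set by these same values, and the share of all probes with such a gap was not counted. The gap is therefore no separate evidence. The ITD difference alone was 0.62 without Cxcl12 (SE 0.28, limma adjusted p = 0.425) and 1.22 with it (SE 0.28, adjusted p = 0.085). Neither passed, and 0.35% and 0.729% of all probes passed in these comparisons. The ITD difference with Cxcl12 passed without WT in set 1 or in set 2 (1.22 each, limma adjusted p = 0.039 and 0.0397), but not without any of the other 6 arrays. Over all 8 such fits it was 0.97 to 1.46, with an adjusted p of up to 0.393. The difference without Cxcl12 rested on single arrays: it was 1.07 without WT in set 1 and 0.16 without WT in set 2, with limma adjusted p of 0.189 to 1 over the 8 fits. The change of the ITD difference with Cxcl12, the interaction, was 0.60 (SE 0.39, limma adjusted p = 1), and 0.15 to 1.06 with 1 array left out.

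Steap3, the endosomal ferrireductase, was measured by 1 of its 2 probes, at a dim level. The other probe was well above background on no array. In set 1 the level was -4.41 in WT, -3.11 in WT with Cxcl12, -4.42 in ITD and -3.14 in ITD with Cxcl12. In set 2 it was -3.88, -2.85, -3.14 and -2.43. Within each set both arrays with Cxcl12 lay above both without it, as did 5.69% of probes, but across sets the values overlapped. The average difference with Cxcl12 was 1.08 log2 (SE 0.25, 95% interval 0.53 to 1.64, limma adjusted p = 0.101), which did not pass. It was 1.30 in set 1 and 0.87 in set 2, 1.17 in wild type cells (SE 0.35, limma adjusted p = 0.492) and 1.0 in ITD cells (SE 0.35, limma adjusted p = 0.396). The processed intensity of this probe was 24.9 to 126 units, near the bottom of what was measured. The average ITD difference was 0.28 (SE 0.25, limma adjusted p = 0.503).

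Slc11a2, the divalent metal transporter DMT1, had 3 measured probes on chromosome 15 and none passed any test. The brightest, at transcript base 2961, read 1.72 in WT, 1.42 in WT with Cxcl12, 1.41 in ITD and 2.13 in ITD with Cxcl12 in set 1, and 0.20, 0.48, -0.17 and 0.46 in set 2. ITD arrays were neither above nor below wild type as a group: the average ITD difference was 0.00 (SE 0.18, 95% interval -0.40 to 0.40). With Cxcl12 the level was 0.68 log2 higher in ITD cells (SE 0.25, limma adjusted p = 0.422) and 0.01 lower in wild type cells (difference -0.01, SE 0.25, limma adjusted p = 0.998). The interaction was 0.69 (SE 0.35, limma adjusted p = 1). The probes at bases 4055 and 253 had average ITD differences of -0.15 (SE 0.20) and 0.26 (SE 0.23).

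**Figure D1:**
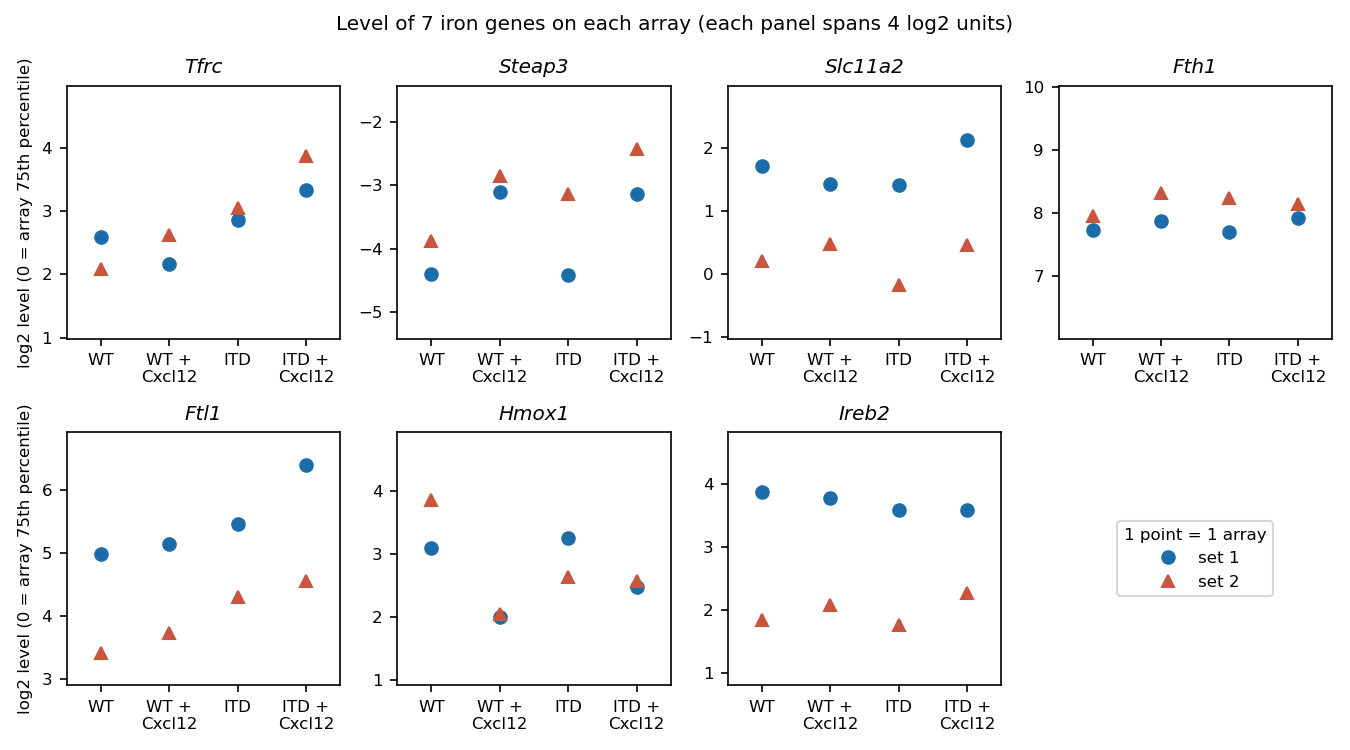
Log2 level of each measured gene on the 8 arrays (vertical axis, 0 is the array's 75th percentile, every panel spans the same range) by group, with circles for set 1 and triangles for set 2 and 1 point per array. All 4 ITD points of Tfrc lie above the 4 wild type points, Ftl1 separates only within each set, and all 4 Hmox1 points with Cxcl12 lie below the 4 without it.

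Of the ferritin chains, Ftl1, the light chain, rose in ITD cells and Fth1 did not pass the test. Its probe (mm9, chromosome 7, 52714977 to 52715036, minus strand) read 4.98 in WT, 5.14 in WT with Cxcl12, 5.46 in ITD and 6.40 in ITD with Cxcl12 in set 1, and 3.42, 3.73, 4.31 and 4.56 in set 2. Both ITD arrays lay above both wild type arrays within each set, as did 9.67% of probes, while the sets themselves were 1.49 log2 apart (set 2 minus set 1, -1.49). The average ITD difference was 0.86 log2 (SE 0.15, 95% interval 0.53 to 1.20, 1.82-fold, limma adjusted p = 0.0159). It was 0.87 in set 1 and 0.86 in set 2. The call was lost without ITD in set 2 or without WT with Cxcl12 in either set, where the difference was 0.75 to 0.89 and the limma adjusted p 0.0794 to 0.0913. Without Cxcl12 the ITD difference was 0.68 (SE 0.21, limma adjusted p = 0.279) and with it 1.05 (SE 0.21, limma adjusted p = 0.0663).

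Group means of Ftl1 ran from ITD with Cxcl12 (5.48 ± 1.30 log2, SD, n = 2) through ITD (4.88 ± 0.82) and WT with Cxcl12 (4.43 ± 1.0) to WT (4.2 ± 1.1). The SDs hold the difference between slides, so no neighbours in this order stand apart by them. The average Cxcl12 difference of 0.42 (SE 0.15, limma adjusted p = 0.24) did not pass.

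Fth1, the heavy chain, which holds the ferroxidase activity of ferritin, read 7.73, 7.87, 7.70 and 7.92 in set 1 (WT, WT with Cxcl12, ITD, ITD with Cxcl12) and 7.95, 8.32, 8.23 and 8.14 in set 2. The ITD and wild type values overlapped in both sets. Its average ITD difference was 0.03 log2 (SE 0.11, 95% interval -0.22 to 0.28, limma adjusted p = 0.895), and its average Cxcl12 difference 0.16 (SE 0.11, adjusted p = 0.539). The probe gave 90800 to 268000 intensity units and was marked saturated on no array. Because both chains were read on the same arrays, the difference between them does not depend on the scaling. Ftl1 minus Fth1 was higher in ITD than in wild type cells by 0.51 and 0.60 without Cxcl12 (set 1, set 2) and by 1.21 and 1.02 with it. Tfrc minus Fth1 was higher by 0.29 and 0.69 without and by 1.13 and 1.44 with Cxcl12. These differences were positive in each of the 4 matched pairs and were not tested. Ftl1 and Tfrc were themselves higher in ITD in all 4 pairs, and Fth1 differed by 0.03 on average. The positive signs are therefore no separate evidence.

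Tfrc and Ftl1 were thus 2 of 11 measured probes, and 2 of 7 measured genes, that passed in the average ITD comparison, both higher. Of all probes 6.02% passed in either direction and 3.25% were higher. The median difference over the 11 probes was 0.00 and over all probes -0.02. Pro-B markers moved with the same comparison: their summed level was 23.6 to 28.8 on ITD arrays and 29.9 to 41.8 on wild type arrays, on a linear scale where 1 is the array's 75th percentile. Ptprc, the pan-leukocyte phosphatase CD45, fell by 0.55 log2 (SE 0.13, limma adjusted p = 0.0419), and none of the other 5 pro-B markers that were measured passed. The erythroid sums were 27.5 and 28.5 on ITD and 26.4 and 33.4 on wild type arrays of set 1, and 17.6 and 23 against 20 and 29 in set 2, so they overlapped within each set and were lower in ITD in 3 of 4 matched pairs. The macrophage sums overlapped in set 1 (42.3 and 45.5 on ITD, 41.1 and 48.3 on wild type arrays). In set 2 they did not, at 6.93 and 9.08 on ITD and 18.1 and 20.9 on wild type arrays. Of the 8 macrophage markers summed, only Cd68 (-0.08 log2, SE 0.21), Adgre1 (-0.68, SE 0.26) and Marco (-0.01, SE 0.23) were measured. None of them passed in the average ITD comparison (limma adjusted p 0.142 to 0.98). The part of these marker differences in the change of Tfrc and Ftl1 was not tested.

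**Figure D2:**
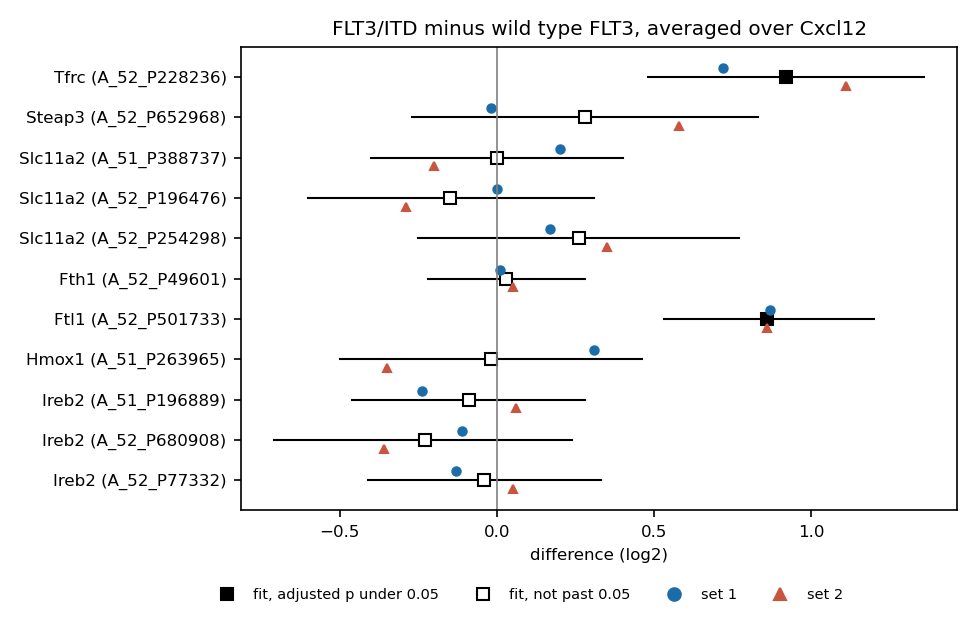
ITD minus wild type difference in log2 (horizontal axis) for the 11 measured probes, averaged over both Cxcl12 states. Squares are fitted values with 95% intervals, filled where the adjusted p is under 0.05, and circles and triangles are the differences within set 1 and set 2: the filled squares are Tfrc at 0.92 and Ftl1 at 0.86, while the other 9 lie between -0.23 and 0.28.

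Slc40a1, which encodes ferroportin, the iron exporter, was not well above background on any of the 8 arrays. Its 1 probe (mm9, chromosome 1, 45965255 to 45965314, minus strand) gave 4.72 to 17.5 intensity units. The array therefore gives no comparison for export.

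Hmox1, the inducible haem oxygenase, was lower on every array with Cxcl12. In set 1 it read 3.09 in WT, 2.0 in WT with Cxcl12, 3.25 in ITD and 2.47 in ITD with Cxcl12. In set 2 it read 3.85, 2.05, 2.64 and 2.57. The 4 arrays with Cxcl12 lay below the 4 without it, as 1.23% of probes did. The average Cxcl12 difference was -0.94 log2 (SE 0.21, 95% interval -1.41 to -0.46, limma adjusted p = 0.101), and it was -0.94 in set 1 and in set 2. It did not pass, and neither did any other member: 0 of 11 probes were called, where 0.213% of all probes were, and 3 of the 11 had an unadjusted p under 0.05, as did 3167 of all 21126 probes. The arrays lay closest in ITD cells of set 2, where 2.64 without and 2.57 with Cxcl12 differed by 0.07.

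By cell, the Cxcl12 difference of Hmox1 was -1.45 in wild type (SE 0.30, limma adjusted p = 0.286) and -0.42 in ITD cells (SE 0.30, limma adjusted p = 0.663). The interaction was 1.03 (SE 0.42, limma adjusted p = 1), so the responses were not shown to differ. Across the array, 0 of 21126 probes passed for Cxcl12 in wild type cells, for Cxcl12 in ITD cells or for the interaction in the limma fit, while 1452, 2202 and 301 had an unadjusted p under 0.05. The ITD difference of Hmox1 was -0.53 without (SE 0.30, limma adjusted p = 0.511) and 0.50 with Cxcl12 (SE 0.30, adjusted p = 0.408). A second Hmox1 probe, so named only in the set 2 files, was well above background on 1 array.

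**Figure D3:**
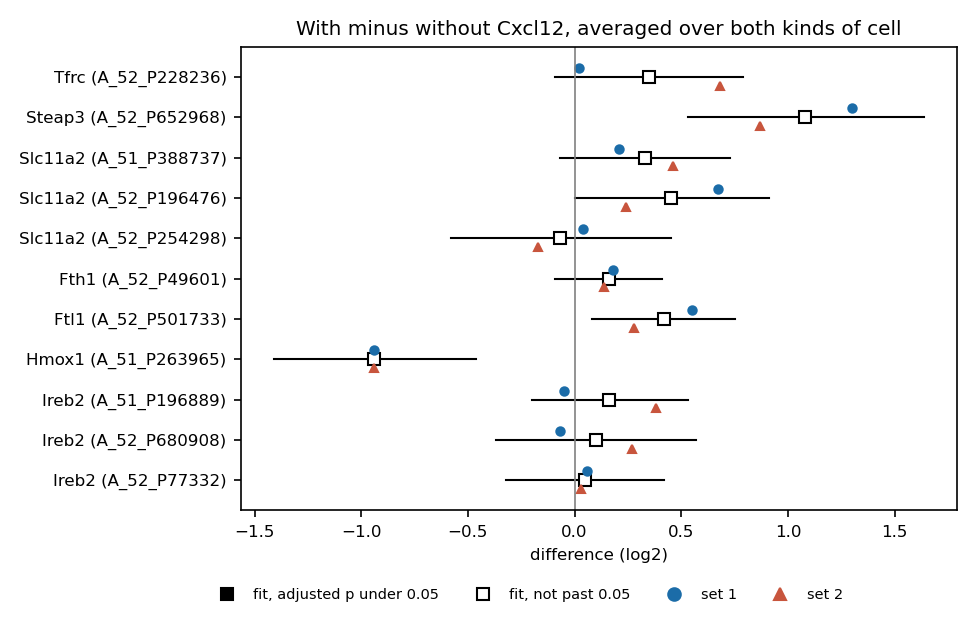
Difference with minus without Cxcl12 in log2 (horizontal axis) for the 11 measured probes, averaged over wild type and ITD cells, with fitted squares, 95% intervals and the values within set 1 (circles) and set 2 (triangles). No square is filled: Steap3 at 1.08 and Hmox1 at -0.94 lie farthest from 0, with an adjusted p of 0.101 each.

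The iron regulatory proteins gave no difference that passed. Ireb2, which encodes IRP2, had 3 measured probes on chromosome 9. The one at transcript base 5450 read 3.87, 3.78, 3.58 and 3.58 in set 1 (WT, WT with Cxcl12, ITD, ITD with Cxcl12) and 1.84, 2.08, 1.76 and 2.28 in set 2. Its average ITD difference was -0.09 log2 (SE 0.16, 95% interval -0.46 to 0.28, limma adjusted p = 0.762). The probes at bases 2735 and 672 gave -0.04 (SE 0.16, limma adjusted p = 0.907) and -0.23 (SE 0.21, limma adjusted p = 0.512), and neither passed. Aco1, which encodes IRP1, stayed at background with both probes on all 8 arrays, at 2.99 to 17.1 intensity units.

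The 3 Ireb2 probes differed between the slides by amounts that followed no single direction. Set 2 minus set 1 was 2.71 log2 at base 672, 0.18 at base 2735 and -1.71 at base 5450. For Slc11a2 it was 0.95 at base 253, -1.43 at base 2961 and 0.64 at base 4055, where the last 2 probes list different transcripts. The slide differences of 2.71, -1.71 and -1.43 exceed every fitted difference between groups of these genes, the largest of which was 0.69, and the fit takes them out with the set term. Their part in the group comparisons beyond that term was not tested. The Ireb2 probes that lie in the coding sequence and disagree in this way are shown 5′ to 3′.
Ireb2 base 672: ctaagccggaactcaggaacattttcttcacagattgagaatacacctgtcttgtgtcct
Ireb2 base 2735: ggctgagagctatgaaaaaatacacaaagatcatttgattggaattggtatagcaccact

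Tests of the slides against each other called no member. The ITD difference in set 1 minus set 2, which sets N51 against N78 together with the slides, was -0.39 for Tfrc (SE 0.36, limma adjusted p = 0.665) and 0.01 for Ftl1 (SE 0.29, adjusted p = 0.991), while 44 of 21126 probes (0.208%) passed.

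The other genes of iron and haem handling were read from 9 lists of 85 genes, of which 83 were on the array and 62 measured. In the average ITD comparison 3 rose, 2 fell and 57 did not pass, where 6.28% of all genes passed. The median over the 62 was 0.12, against 0.00 over all genes. None passed for Cxcl12, where 0.266% of all genes did. Of the 9 measured genes of the transferrin cycle and iron import, 3 passed.

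Trf, which encodes transferrin itself, rose in ITD cells. It read -0.41, -0.72, 0.61 and 0.22 in set 1 (WT, WT with Cxcl12, ITD, ITD with Cxcl12) and -0.18, -0.34, 1.12 and 1.06 in set 2. All ITD arrays lay above all wild type arrays, as 2.97% of probes did, and the difference was 1.17 log2 (SE 0.17, limma adjusted p = 0.0086). Tfr2, the second transferrin receptor and a sensor of transferrin iron, went the other way from Tfrc. It read 2.57, 1.64, 1.34 and 0.91 in set 1 and 2.15, 1.72, 0.30 and 0.01 in set 2, and it fell by 1.38 log2 (difference -1.38, SE 0.21, limma adjusted p = 0.01). All ITD arrays lay below all wild type arrays, as 2.39% of probes did. Without ITD in set 2 or WT with Cxcl12 in set 2, Trf (1.16 and 1.13, limma adjusted p = 0.0576 and 0.0653) and Tfr2 (-1.23 and -1.17, adjusted p = 0.0614 and 0.057) did not pass.

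Slc39a14, the transporter ZIP14 for iron not bound to transferrin, rose by 0.72 log2 (SE 0.17, limma adjusted p = 0.0447), and without any 1 of the 8 arrays it no longer passed (0.61 to 0.84, adjusted p = 0.0513 to 0.235). In the ferritin list, the probe for Ftl2-ps, a ferritin light chain copy nearly identical to Ftl1, rose by 0.67 (SE 0.13, limma adjusted p = 0.0236). It read 5.02, 5.41, 5.55 and 6.18 in set 1 and 4.2, 4.5, 4.9 and 5.18 in set 2, in the order of the Ftl1 probe, and the 2 probes may bind each other's RNA, so they are not separate evidence. Its call was lost in 5 of the 8 fits that each left out 1 array (0.61 to 0.73 and adjusted p up to 0.147 over the 8). Ncoa4, the receptor that takes ferritin to the lysosome (-0.20, SE 0.16), and Pcbp1, which delivers iron to ferritin (0.30, SE 0.14), did not pass. Neo1, the receptor neogenin that takes part in hepcidin control, fell by 1.38 log2 (difference -1.38, SE 0.19, limma adjusted p = 0.00634). It was the 1 measured gene of the hepcidin list, and Hamp, which encodes hepcidin, was well above background on no array.

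No gene of the remaining lists passed. None of the 4 genes of IRP control passed, with Fbxl5, which targets IRP2 for degradation, at -0.26 log2 (SE 0.18). None of 19 genes of mitochondrial iron and iron-sulfur clusters passed, with the importer Slc25a37 at 0.21 (SE 0.22). None of 8 haem synthesis genes passed, with Alas1, the first enzyme, at 0.02 (SE 0.15) and Fech, the last, at -0.25 (SE 0.17). Among 7 genes of haem transport and breakdown, Hmox2, the constitutive haem oxygenase, was at 0.13 (SE 0.16). Among 9 genes of the NRF2 and BACH1 list, which regulate Hmox1, Nfe2l2 was at 0.42 (SE 0.21; -0.05 in set 1 and 0.89 in set 2, with another of its 4 probes of opposite sign) and Bach1 at -0.54 (SE 0.24), and none passed. No ferrireductase or ferroxidase outside the members was measured, of 6 on the array.

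**Figure D4:**
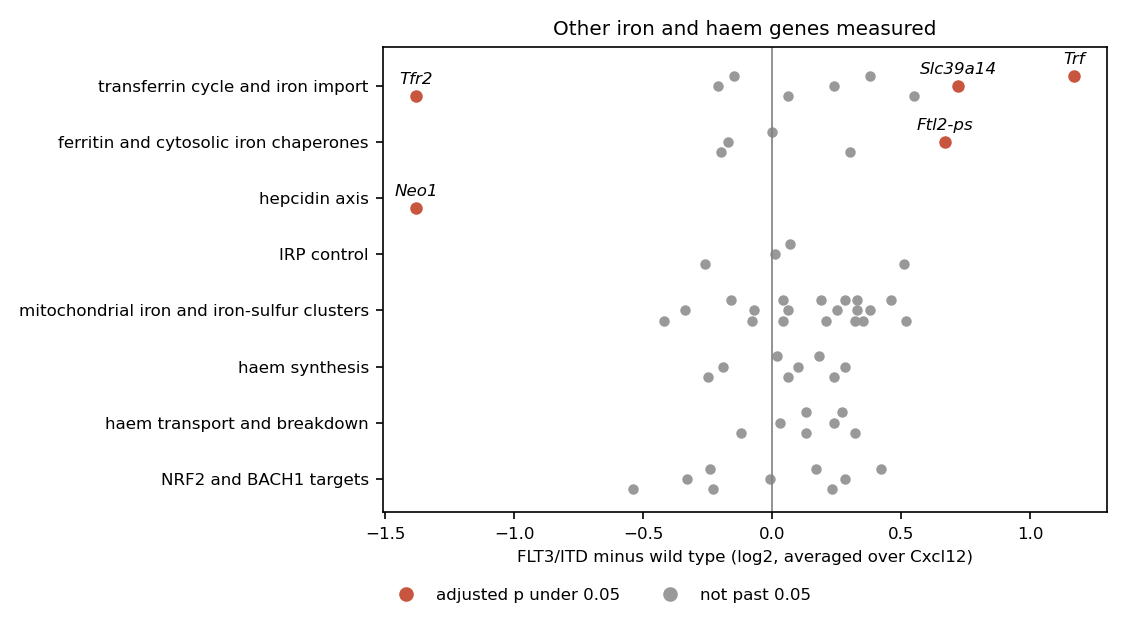
ITD minus wild type difference in log2 (horizontal axis) of the 62 measured iron and haem genes outside the members, 1 point per gene, by list, with the 5 that passed named and coloured. Trf at 1.17, Slc39a14 at 0.72 and Ftl2-ps at 0.67 lie right of 0, and Tfr2 and Neo1, both at -1.38, lie left.

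Over the 8 arrays, centred within each set, the members' patterns are described by Pearson's r, which arrays share through slide and scaling. It was 0.88 for Tfrc and Ftl1, 0.28 for Tfrc and Fth1 and 0.44 for Fth1 and Ftl1. Hmox1 ran opposite to Fth1 (r = -0.93) and to Steap3 (r = -0.86). Of 18146 probes ranked, those most like Tfrc were of Mrps22 (r = 0.991), Zfp239 (0.985) and Cnnm4 (0.979), and those most like Ftl1 of Nagpa (0.993), Mrpl37 (0.992) and Plekha4 (0.989). For Hmox1 they were of Piga (0.981), Sesn2 (0.976) and Hic2 (0.972), for Fth1 of Bpgm (0.985), Suv39h1 (0.977) and Trappc12 (0.976), and for Steap3 of Zfyve19 (0.991), Baiap2 (0.991) and Rhno1 (0.984). Slc11a2 was most like Fbxo31 (0.982), Mgat5 (0.964) and Fam91a1 (0.957), and Ireb2 most like Mgat2 (0.984), Nol8 (0.966) and Slc35f5 (0.965). These are the highest of 18146 values each over 8 points.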

How the data were processed

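Total RNA of 8 samples was read on 1-colour Agilent mouse arrays. Per the file headers, the deposited processed intensity had its background removed array by array in Agilent Feature Extraction (9.5.1.1 in set 1, 10.7.3.1 in set 2). The deposited foreground and background intensity columns served only the normexp alternative (offset 50). The authors' normalized tables hold deposited signal values scaled separately per slide; they served as an alternative. Here log2 was taken minus each array's 75th percentile, 43379 non-control spots were averaged over 41174 probes with outlier spots left out, and 21126 probes were kept, those well above background on both arrays of some group. The brightest kept probe stood for a gene in counts of genes (12046 genes). One limma fit (3.58.1, R 4.3.3, with the data.table package, version 1.17.8) held 4 group means and the set as block, with an intensity trend and 3 residual degrees of freedom; p-values were Benjamini-Hochberg adjusted over all kept probes and passed under 0.05, and only such differences are said to rise or fall. The test of the ITD difference between sets added that term. The fit was run on simulated data with planted ITD differences and independent noise. That run cannot speak to the slide, the ITD form or the position. The slide named in the headers pairs the arrays: deviations from the group means correlated at 0.761 to 0.909 within a set. Motifs were searched with Python 3.11.15, and probe coordinates are mm9 from the set 2 files.

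The members, the 9 iron and haem lists, the 3 marker lists and the tests were chosen with earlier results of these data known. All members were named with every measured probe. Other list genes were named if they passed, up to 6 per direction, together with a short list of regulators named whatever their values, and 3 like-pattern genes per member. Alternatives were normexp, quantile scaling, other probe filters, no or a random set block, no trend, 1 probe per gene, the authors' tables and each array left out. The number of arrays limits the precision.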

Additional observations from a re-analysis of the deposited data

How the results depend on the processing

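Tfrc and Ftl1 were higher in ITD cells under all 17 alternatives, by 0.69 to 1.27 and 0.75 to 1.27 log2, and passed under 8 and 11 of them. The number of members called was 2 in the average ITD comparison. It was 1 with normexp background, where Ftl1 lost its call (1.27, limma adjusted p = 0.128). It was also 1 with no intensity trend, where Tfrc lost its call (limma adjusted p = 0.0638). It was 0 with no filter on dim probes (limma adjusted p 0.0862 for Tfrc and 0.0611 for Ftl1) and 0 with no replicate block. Without the block, 0 probes of the array passed for the average ITD, the average Cxcl12 or either single ITD difference. Tfrc then had a limma adjusted p of 0.845, and the comparison between sets was not run. With 1 array left out, the average ITD difference was 0.69 to 1.14 for Tfrc and 0.75 to 0.98 for Ftl1. With Cxcl12 present, Tfrc passed with normexp (1.89, limma adjusted p = 0.0357; 1 member), and 0 to 1 members passed with 1 array left out. Hmox1 and Steap3 passed for Cxcl12 under none of the 17 alternatives (lowest limma adjusted p 0.0552 and 0.0641). Of the list genes, Slc39a14 lost its call under 14 of the 17 alternatives, Ftl2-ps under 9, Trf and Tfr2 under 3 each and Neo1 under 2. The cause of these changes was not tested.

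Signs turned only for values that passed no test. With normexp these were the average Cxcl12 differences of Fth1 (-0.30), Ireb2 base 5450 (-0.15) and Slc11a2 base 253 (0.37), the average ITD differences of Hmox1 (0.23), Ireb2 base 5450 (0.22), Slc11a2 base 2961 (0.11) and base 253 (-0.45) and Steap3 (-0.46), the Cxcl12 differences in wild type cells of Ftl1 (-0.46) and Tfrc (-0.59), and Ftl1 between sets (-0.77). With the authors' tables they were Ftl1 between sets (-0.09), the average ITD differences of Hmox1 (0.11), Ireb2 base 5450 (0.04) and base 2735 (0.09) and Slc11a2 base 2961 (0.13), and Cxcl12 in wild type cells for the last probe (0.12). Quantile scaling turned Ireb2 base 2735 (0.02) for ITD and Slc11a2 base 2961 (0.01) for Cxcl12 in wild type cells. With 1 array left out, signs turned for average ITD differences of Fth1 (-0.03 to 0.09), Hmox1 (-0.25 to 0.21), Ireb2 base 5450 (-0.23 to 0.05), Slc11a2 base 2961 (-0.16 to 0.16) and base 4055 (-0.32 to 0.03), for average Cxcl12 differences of Ireb2 base 672 (-0.02 to 0.22) and Slc11a2 base 253 (-0.21 to 0.08), for Cxcl12 in wild type cells of Tfrc (-0.41 to 0.50) and Slc11a2 base 2961 (-0.34 to 0.31), for Cxcl12 in ITD cells of Hmox1 (-0.88 to 0.04), and between sets for Tfrc (-0.88 to 0.09) and Ftl1 (-0.33 to 0.35).

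Counts over all probes moved more. For the average ITD difference 1272 passed, against 484 with normexp, 285 with no filter, 707 with no trend, 0 with no replicate block and 195 to 1518 with 1 array left out. For the average Cxcl12 difference 45 passed, against 106 with normexp, 2 with no filter, 96 with probes above background on all arrays (bright probes), 0 with no block, 174 with a random block, 77 with 1 probe per gene, 11 with no trend, 197 with the authors' tables and 4 to 289 with 1 array left out. For ITD without Cxcl12 74 passed, against 40 with quantile scaling, 5 with no filter, 43 with bright probes, 0 with no block, 117 with a random block, 190 with the authors' tables and 14 to 90. For ITD with Cxcl12 154 passed, against 259 with normexp, 30 with no filter, 98 with bright probes, 0 with no block, 101 with no trend, 292 with the authors' tables and 19 to 321. For Cxcl12 in wild type cells 0 passed, against 18 with normexp, 9 with bright probes, 19 with a random block, 9 with 1 probe per gene, 11 with the authors' tables and 0 to 15. In ITD cells 0 passed, against 36 with normexp, 4 with bright probes, 5 with a random block, 6 with the authors' tables and 0 to 73. For the interaction 0 passed, against 7 with normexp and 0 to 18. Between sets 44 passed, against 80 with normexp, 20 with quantile scaling, 7 with no filter, 95 with 1 probe per gene, 7 with no trend, 265 with the authors' tables and 6 to 564. The median over all probes moved from -0.02 to 0.11 for the average ITD difference with no filter or with the authors' tables. The highest median in any comparison was 0.24 (Cxcl12 in ITD cells with no filter, 0.02 in the main setting), and ITD without Cxcl12 went from -0.04 to 0.19 with the authors' tables.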
